A study of Mus musculus with 16 samples.

Results

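The 8 livers shared 3001 regions of 121 to 1499 bp that were called as m6A peaks, and these regions are described here. The deposited false discovery rate of their peaks had medians between 65.1% and 95.9% in the 8 lists. Peaks of the 8 lists were merged where they overlapped by at least 1 bp, which gave 17526 regions, and the members were chosen by the presence of a peak in all 8 lists and by a merged length within these limits. The 3001 members made up 17.1% of all merged regions and 68.8% of the 4360 regions found in all lists, of which another 560 were shorter and 799 longer. The members lay in 2094 genes, 27.2% of the 7693 genes with any peak. Because recurrence and length chose the members, neither is a finding.

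Livers came from male C57BL/6J mice, 10 to 11 weeks old, fed for 2 weeks on a normal diet (ND) or on a diet high in fructose (HFrD). The HFrD supplied 10% of its energy as fat, 70% as carbohydrate and 20% as protein. Each diet had 4 immunoprecipitated and 4 input libraries, and the peak list of each of the 8 immunoprecipitated libraries was used. Mice 1, 3, 6 and 7 were the ND animals, and mice 1, 2, 5 and 7 the HFrD animals, with the shared numbers 1 and 7 naming different animals. Lists held between 8055 and 11517 peaks, 77183 in all. Read depth is unknown, and bulk liver mixes hepatocytes with other cells. Of 12 hepatocyte marker genes, 6 had a peak in some list (Ttr, Apoa1, Ass1, Hnf4a, Foxa3 and C8a) and 0 had a member. A missing peak is not a measure of missing transcript.

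N6-methyladenosine (m6A) is written on messenger RNA in the nucleus by a complex around Mettl3 and Mettl14, removed by demethylases and read by proteins of the YTH domain family. It is known for sites near stop codons and in long internal exons, and it affects splicing, translation and decay of the transcript. Methylated adenosines sit in a short consensus whose best known form is GGACT in DNA letters. MeRIP-seq recovers RNA fragments with an antibody, so a peak marks a stretch of RNA and not the modified base.

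The lists set most members at exon borders. Of the 2784 members (92.8%) with a transcript model, 2370 (85.1%) began and ended exactly at the borders of an annotated exon, 321 (11.5%) lay inside 1 exon, and 93 (3.34%) passed an exon border. Start and end were the same in all 8 lists for 2111 of the 3001 members (70.3%). Among the other 890 members the stretch common to all lists covered a median of 75.2% of the merged region. Nearly every member held a single peak in each list (2992 of 3001), so the peaks per member carried almost no information. The member lengths had a median of 330 bp, with quartiles of 183 and 725 bp.

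Borders agreed less often in longer members. Among the 895 members of 121 to 200 bp, 95.1% had the same borders in all lists and 97.3% of those with a model were whole exons. Among the 641 members of 801 to 1499 bp, these shares were 34.8% and 60.8%. The kind of exon differed as well. Internal exons made up 78.5% of the shortest class and last exons made up 54.3% of the longest. The deposited coordinates of short members are thus mostly those of exons, and they give no position for a methylated base.

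**Figure D1:**
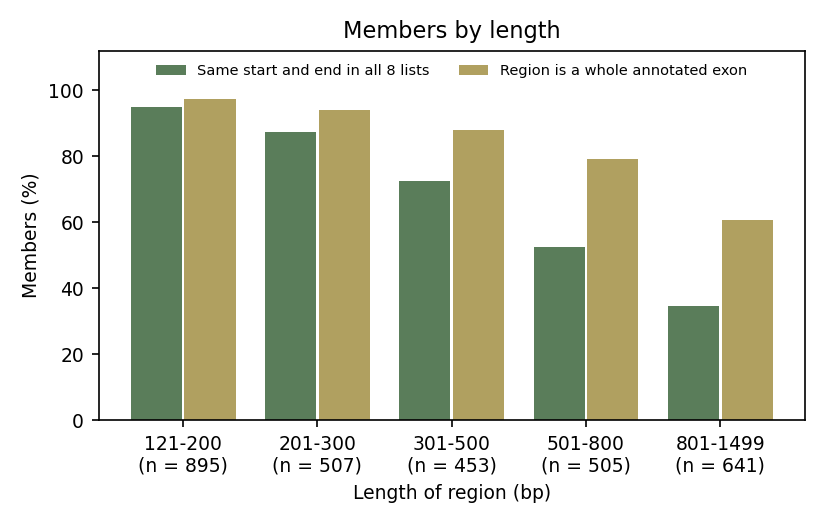
Members by length class (x axis, bp, with the number of members), showing the percent with the same start and end in all 8 lists (green) and the percent of those with a transcript model that coincide with a whole annotated exon (ochre). Both shares are highest at 121 to 200 bp (95.1% and 97.3%) and lowest at 801 to 1499 bp (34.8% and 60.8%).

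By exon, 1430 members (51.4%) lay in internal exons, 784 (28.2%) in first exons, 524 (18.8%) in last exons and 46 (1.65%) in single-exon models. By midpoint, 1344 members (48.3%) were in the coding sequence (CDS), 813 (29.2%) within 200 nt of the start codon, 358 (12.9%) within 200 nt of the stop codon, 152 (5.46%) in the 3'UTR and 89 (3.20%) in the 5'UTR. The median fold enrichment was 13.2 in first, 10.2 in internal and 10.5 in last exons. Fold enrichment is the deposited ratio of signal in the immunoprecipitate over the local background, and a member's value in a mouse is that of its highest peak. The values that follow describe the members, and recurrence in all lists itself favours strong peaks.

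The 3 regions nearest each length limit were taken on either side. At the lower limit the medians of the 3 outside were above those of the 3 inside, and at the upper limit they overlapped. These few regions do not stand for their classes. The median fold enrichment was 10.3 over all peaks of the shorter regions and 10.4 over the members of 121 to 200 bp. Just inside the lower limit were 121 bp exons of Spag9, Tex2 and Fyb, with median fold enrichments of 3.90, 4.21 and 14.5. Just outside were 120 bp regions of Egln1, Spcs2 and Tcea3, with medians of 18.3, 127 and 20.2. At the upper limit, Btbd3 (1499 bp), Cebpz (1493 bp) and Zfp710 (1492 bp) had medians of 11.3, 12.8 and 10.6, and the regions of 1501 bp just outside, in Tab2, Capn15 and Golim4, had 8.95, 20.0 and 12.9.

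Member exons were rich in purines. In internal exons of 121 to 1499 bp, A and G made up 57.8% of the bases of the 1590 exons with a member and 51.9% of the 30244 exons without a peak in any list. Exons with other peaks lay between them at 54.1% (4768 exons). Uninterrupted runs of at least 20 purines were present in 12.7% of the internal exons with a member. The share was 3.71% in those with another peak and 0.681% in those without a peak. A longer exon can hold a run more easily, and runs were not compared by length. The median length was 205 bp with a member and 159 bp without a peak. The exons come from 1 transcript for each gene with a peak, and they were read on the transcript strand. Exons are not replicates, so these shares are a description without a test, and the measure was chosen after pentamer counts of these exons had been seen.

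Within genes and within length classes the gap in purine content was in the same direction. In 866 genes that had both an internal exon with a member and an internal exon without a peak, the mean purine content was 59.8% in the former and 53.8% in the latter, and it was higher in the member exons of 707 genes (81.6%). Between 121 and 200 bp it was 63.0% in 771 member exons and 52.4% in 23962 exons without a peak. Between 801 and 1499 bp the contents were 53.9% (170 exons) and 49.9% (128 exons). First exons showed a smaller gap, 53.7% against 50.1%, and last exons 51.8% against 48.8%. Among 1422 members that are whole internal exons, the 356 richest in purines had a median within-list percentile of fold enrichment of 83.0, and the 356 poorest had 61.2 (Spearman rho 0.33, Pearson r 0.31, across members that share libraries). The richest were also shorter, with a median of 165.5 bp against 477 bp in the poorest.

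**Figure D2:**
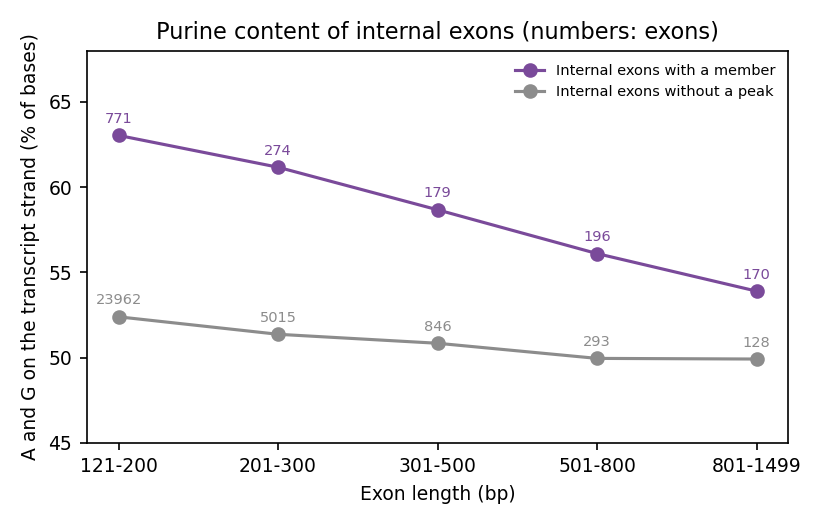
Purine content (y axis, percent A and G on the transcript strand, axis from 45%) of internal exons with a member (purple) and without a peak in any list (grey) by exon length, with the number of exons at each point. The member exons lie above in every class, by the widest margin at 121 to 200 bp (63.0% against 52.4%).

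Pentamers made of A and G alone led the contrast, and GGACT was near a ratio of 1. The 1024 pentamers were ranked by their frequency in internal exons with a member over that in internal exons without a peak. Of the first 20, 19 consisted of A and G only. The 32 all-purine pentamers had a median ratio of 1.85, and the other pentamers 0.894. AAGAG ranked first, with 4.60 against 1.98 per 1000 pentamers, followed by GAAGA with 7.53 against 3.4. GGACT ranked at 400, with 1.17 against 1.18 per 1000.

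Members with long purine runs are shown as examples. They stand neither for the longest runs nor for the strongest members as a whole. Runs in Mylip (54) and Usp34 (53) were longer. In Cald1 and Arid4a the exon shown was the most enriched member, and another exon had a longer run (30 and 18). Of the 10 strongest members described below, 8 had a longest run between 6 purines (Pdcd4) and 11 (Tia1), and the runs of Fam32a and Bptf were longer. Each line gives at most 30 bases, 5′ to 3′ on the transcript strand of mm10, and the capitals mark the run.
Smarca2 exon 9 of 33 (chr19:26654479-26654508, plus strand, CDS, the first 30 bases of a run of 33): AAAGAGAAGAAGAAGAGGAGGAGGAGGAAG
Smarca4 exon 10 of 34 (chr9:21642563-21642592, plus strand, CDS, a run of 30): AAGGAGAAGAAGAAGAAAAAGAAAAAGAAG
Cald1 exon 5 of 12 (chr6:34755808-34755837, plus strand, CDS, a run of 29): GAAGAAAAAGAGGGAAGAGAGAAGGAAGGt
Arid4a exon 16 of 24 (chr12:71067307-71067336, plus strand, CDS, a run of 17): tcagatGAAGAGGAAGAGAAGAGccaagag
Fam32a exon 2 of 4 (chr8:72219941-72219970, plus strand, start codon segment, a run of 18): GAAGAAGAAGAAGAAAGAcaaagacaaggc
Bptf exon 1 of 29 (chr11:107131434-107131463, minus strand, CDS, a run of 17): gaggacGAGGAGGAGGAGGAGGAtggcgac
Smarca2 and Smarca4 are paralogous ATPases of the SWI/SNF remodelling complex, and the exon shown was the most enriched member of each. The longest run and the highest median fold enrichment fell on the same member in these 2 of the 10 genes with most members.

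GGACT was about as frequent around the midpoints of member peaks as in transcript windows at large. It occurred in 1040 of the 2784 members with a strand (37.4%), at 1.25 per kb. In windows reaching 50 bp to either side of the peak midpoints, 10.4% of the member peaks held it, beside 10.1% of 327395 windows of that length tiled over the transcripts. In peaks of regions not found in all lists the share was 10.9%, so within each mouse the member peaks were 0.544 ± 0.406 percentage points lower (SD of the difference, n = 8; lower in 8 of 8 mice; exact sign-flip test, two-sided, p = 0.00781, the smallest it can give; Benjamini-Hochberg adjusted p = 0.0125). This difference was -0.126 without HFrD mouse 7 (adjusted p = 0.589), -0.308 without ND mouse 3 (adjusted p = 0.25) and -0.493 without HFrD mouse 5 (adjusted p = 0.05), with regions merged anew each time. The members are the same regions in every mouse, so the test covers the spread between lists only. Of member peaks with a model, 79.7% were whole exons, so most midpoints are exon centres and need not be where the signal was highest. In internal exons of 121 to 200 bp, 9.99% of those with a member and 16.0% of those without a peak held GGACT, and from 501 to 800 bp 59.2% and 50.5% did. Over all last exons of 121 to 1499 bp, 69.0% of those with a member and 49.3% of those without a peak held it. Their rates were 1.57 and 1.01 per kb. In first exons the rates were 1.17 and 1.24 per kb, and in internal exons 1.15 and 1.15.

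The wider consensus, a base other than C, a purine, A, C and a base other than G, gave a similar picture in the windows. It was present in 83.0% of the member windows, 84.6% of windows of the other peaks and 86.3% of the tiled windows. Per kb of internal exon it numbered 22.9 with a member and 20.9 without a peak. These rates were 21.8 and 20.4 in last exons and 12.5 and 12.9 in first exons. The difference between member and other peaks was -1.65 ± 0.809 percentage points (SD, n = 8; lower in 8 of 8 mice; exact sign-flip test, adjusted p = 0.0125), and -1.05 without HFrD mouse 7 (adjusted p = 0.075). GC content of the windows was 56.4% in member and 54.4% in other peaks, higher by 1.98 ± 0.722 percentage points in 8 of 8 mice (exact sign-flip test, adjusted p = 0.0125). The kinds of exon differed between the groups, as first exons held 28.1% of member peaks and 21.8% of peaks of regions not found in all lists. Among exons with a member, GC content was 67.7% in first and 52.1% in internal exons. The part of exon kind in the window differences was not tested. A match to these letters describes the window and does not locate a methylated base.

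A larger share of member peaks than of other peaks lay within 200 nt of a start codon. The start codon segment held 29.1% of member peaks and 25.6% of peaks of regions not found in all lists, a difference of 3.46 ± 1.53 percentage points (SD, n = 8; higher in 8 of 8 mice; exact sign-flip test, adjusted p = 0.0125). The 3'UTR held 5.51% against 10.8%, a difference of -5.34 ± 1.32 points (lower in 8 of 8 mice; exact sign-flip test, adjusted p = 0.0125). Peaks were placed by their midpoint, and 79.7% of member peaks and 69.4% of the other peaks with a model were whole exons. The shares thus mostly describe which exons were listed. The length limits and the recurrence of the members enter both values. Among the shorter regions found in all lists, 34.5% of peaks were in the start codon segment and 0% in the 3'UTR. Among the longer ones these shares were 1.06% and 28.5%. For the CDS the difference was 2.37 ± 2.08 points, higher in 7 of 8 mice (exact sign-flip test, adjusted p = 0.0312), and it missed the threshold of 0.05 when any of the mice other than ND mouse 3 was left out (adjusted p between 0.0625 and 0.179). Stop codon segments (-0.724 ± 1.80 points, adjusted p = 0.305) and 5'UTRs (-0.119 ± 0.179 points, adjusted p = 0.125) did not pass the exact sign-flip test.

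Windows around GGACT are shown for members named below, to place the consensus beside the purine runs. Each has 29 bases, 5′ to 3′ on the transcript strand of mm10, with GGACT in capitals, and the occurrence nearest the middle of the member was taken.
Smarca2 exon 27 of 33 (chr19:26720896-26720924, plus strand, CDS): gcgccgggatgtGGACTacagtgatgccc
Smarca4 exon 9 of 34 (chr9:21640932-21640960, plus strand, CDS): gcagcatgccaaGGACTtcagggagtatc
Arid4a exon 16 of 24 (chr12:71067279-71067307, plus strand, CDS): taaaaagccagaGGACTctgagagagact
Eif4ebp1 exon 1 of 3 (chr8:27260489-27260517, plus strand, start codon segment): gctcccgcccggGGACTacagcaccactc
Spi1 exon 5 of 5 (chr2:91115481-91115509, plus strand, stop codon segment): agggccgaggcaGGACTgggggcccggcc
Pparg exon 7 of 7 (chr6:115490171-115490199, plus strand, stop codon segment): ggagatctacaaGGACTtgtattagcagg

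The share of internal exons with a member was higher in longer exons. It was 2.81% of 27468 exons at 121 to 200 bp, 4.36% of 6280 at over 200 and up to 300 bp, 12.2% of 1472 at 301 to 500 bp, 24.8% of 791 at 501 to 800 bp and 28.8% of 591 at 801 to 1499 bp. For last exons it went from 9.68% of 155 at 121 to 200 bp to 11.6% of 1595 at 801 to 1499 bp. First exons went from 10.1% of 1742 to 27.4% of 259. A longer exon also offers more sequence in which a peak can fall.

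The strongest members included first exons of genes of RNA binding and translation. The 10 members whose lowest within-list percentile was highest were chosen on fold enrichment, so their rank is a description, and their median fold enrichments ran from 86.3 to 625, beside a median of 10.9 over all members (quartiles 8.10 and 16.1). Tia1, an RNA-binding protein of stress granules, was one of them through its first exon (chr6:86404219-86404522). Its fold enrichment was 265, 276, 381 and 295 in ND mice 1, 3, 6 and 7 and 274, 337, 186 and 385 in HFrD mice 1, 2, 5 and 7. The diets overlapped, with the lowest and the highest value both in HFrD mice.

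Regulators of translation and a ribosome receptor were in the same set. Exon 1 of Rrbp1, which tethers ribosomes to the endoplasmic reticulum (chr2:144010999-144011263), had 120, 100, 179 and 138 in ND and 103, 125, 145 and 120 in HFrD mice. Exon 1 of Eif5b, which joins the ribosomal subunits at initiation (chr1:37998010-37998324), had 114, 70.3, 86.2 and 110 in ND and 117, 96.5, 117 and 75.5 in HFrD mice. Exon 1 of Pdcd4, an inhibitor of the initiation helicase eIF4A (chr19:53903351-53903488), had 74.1, 69.3, 86.9 and 102 in ND and 117, 84.5, 90.3 and 85.8 in HFrD mice. The diets overlapped in each of them. Exon 1 of Bptf, a subunit of the nucleosome remodelling factor NURF (chr11:107131274-107132127), ranged from 79.2 to 126 in ND and from 86.4 to 156 in HFrD mice.

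The remaining strong members were in Gm4799, Gm4076, C130074G19Rik, Pdap1 and Fam32a. Gm4799 (chr10:82954512-82955000), annotated by RefSeq as a pseudogene, had the highest values, from 563 to 764 in ND and from 319 to 909 in HFrD mice. Pseudogenes share sequence with their parent genes, so the origin of these reads is uncertain, and 24 members carried a gene of biotype pseudogene against 2964 in protein-coding genes. C130074G19Rik exon 1 (chr1:184882686-184883218) was the only one of the 10 in which the diets did not overlap, beside 5.23% of all fitted regions, with 153, 144, 172 and 167 in ND and 86.1, 122, 88.5 and 61.5 in HFrD mice. Its difference on the centred log2 scale was -0.78 ± 0.23 (SE, n = 4 each; limma, adjusted p = 0.329 over 4360 regions).

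**Figure D3:**
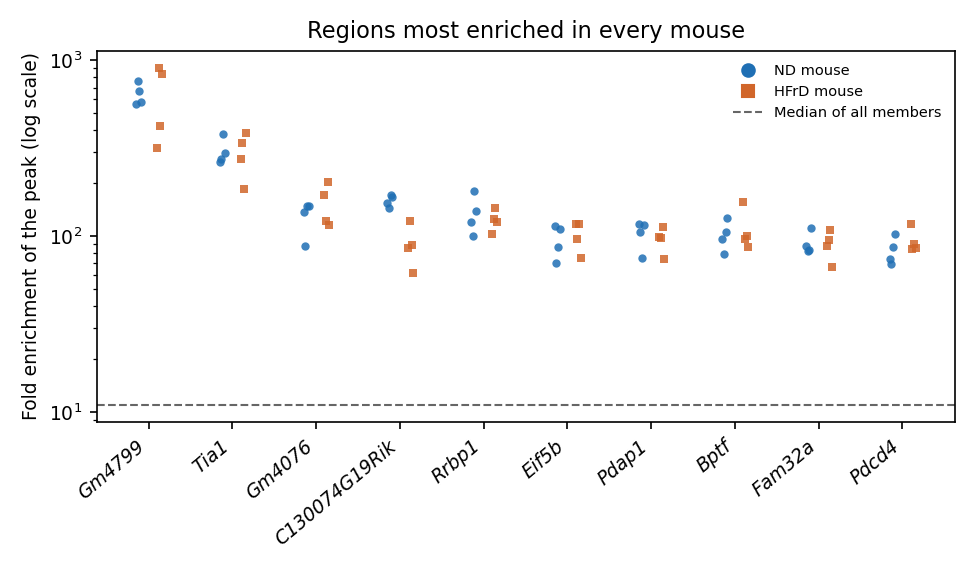
Fold enrichment (y axis, log scale) of the 10 members with the highest lowest within-list percentile, with a point for each ND mouse (blue circles) and HFrD mouse (orange squares) and a dashed line at the median of all members (10.9). All points lie above the line, and only in C130074G19Rik are all ND values above all HFrD values.

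Most genes held a single member. Of the 2094 genes, 1527 (72.9%) had 1 member, 377 had 2, 102 had 3 and 88 had 4 or more. The mean was 1.44 members per gene, and these genes had a mean of 3.76 merged regions of any kind, beside 1.73 in the 5599 other genes with a peak. In 452 genes the member was the only region found in any list, and 617 genes had all their regions in all 8 lists. Genes with most members included regulators of chromatin, the cytoskeleton and membranes.

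Smarca2, an ATPase of the SWI/SNF chromatin remodelling complex, had the most members, 11 of its 16 regions, and its paralogue Smarca4 had 7 of 14. Their exons differed widely. In Smarca2 the median fold enrichment ran from 8.54 in exon 25 to 40.6 in exon 9, and in Smarca4 from 4.79 in exon 33 to 43.2 in exon 10. Smarca2 exon 9 (chr19:26654341-26654511) was the highest of the Smarca2 members in 8 of 8 mice, and so was exon 10 (chr9:21642425-21642592) among those of Smarca4. Smarca2 exon 9 had 28.6, 30.02, 41.1 and 46.9 in ND and 46.3, 40.1, 54.8 and 23.2 in HFrD mice, and the diets overlapped.

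The other genes with most members had varied roles. Erc1, a scaffold of the presynaptic active zone and of vesicle docking, had 9 members in 14 regions, all of them whole internal exons, with medians from 7.30 to 21.4. Taok3, a kinase of the STE20 family, and Tnrc18 had 8 each. Akap9, which anchors protein kinase A at the Golgi and centrosome, had 7 of 21 regions with medians from 5.25 to 23.7, and Cgnl1, a protein of cell junctions, had 7 of 16 with medians from 14.98 to 50.1. Rrbp1 had 7 members, of which exon 1 (122) was far above the other 6 (8.71 to 23.1). Arid4a, a chromatin protein that binds the retinoblastoma protein, and Cald1, which binds actin and myosin, had 6 each.

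**Figure D4:**
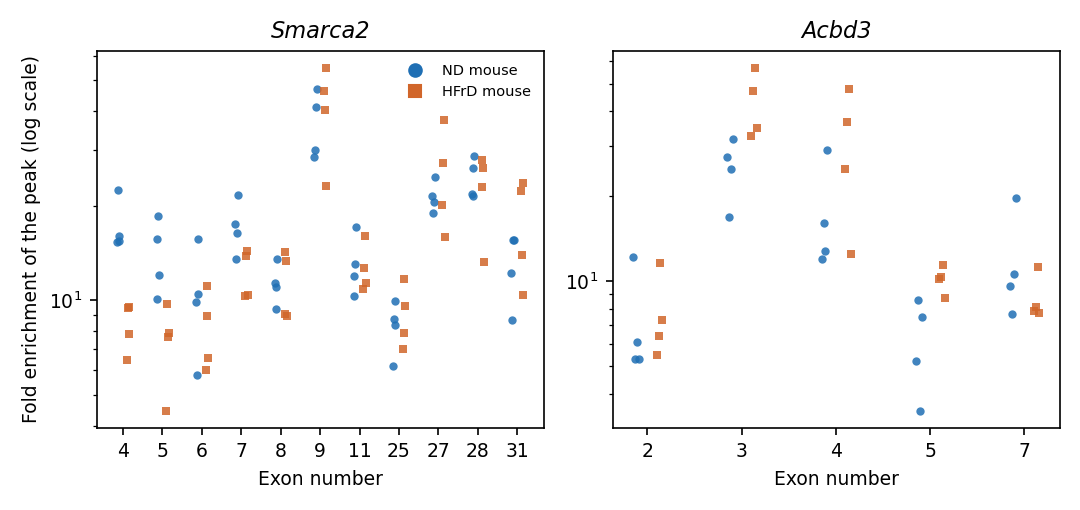
Fold enrichment (y axis, log scale) of each member of Smarca2 (left) and Acbd3 (right) by exon number (x axis, not to scale), with a point for each ND mouse (blue circles) and HFrD mouse (orange squares). Exon 9 of Smarca2 has the highest median (40.6), and in Smarca2 exons 4 and 5 and Acbd3 exons 3 and 5 the diets do not overlap.

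Genes of chromatin often held members. Of 54 chromatin modifiers with a peak, 34 (63.0%) had a member, beside 27.2% of all genes with a peak, and they held 83 members, among them 5 in Chd2, 5 in Bptf and 4 in Arid1a. Of 13 genes whose symbol begins with Phf, a family with PHD fingers that read histone tails, 10 (76.9%) had a member. Of 44 DEAD and DEAH box RNA helicases, 20 (45.5%) did, with 35 members at a median percentile of 88.3. Ddx46, a helicase of the spliceosome, had 4 members, and its exon 5 (chr13:55647627-55647792) had a median fold enrichment of 68.9. Of 29 nuclear receptors and coregulators, 15 (51.7%) had a member, with 4 in Crebbp, a histone acetyltransferase.

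Among lists of liver metabolism the share ran from well below to about that of all genes with a peak (27.2%). Of 15 genes of lipogenesis with a peak, 1 (6.67%) had a member, which was Scd1. Of 17 genes of glucose and fructose metabolism, 2 (11.8%) had one, Slc2a1, a glucose transporter, and Gckr, the regulator of glucokinase. Of 22 secreted plasma proteins, 5 (22.7%) did, and of 18 genes of fatty acid oxidation and PPAR signalling, 5 (27.8%). Of 18 sterol and lipoprotein genes 4 (22.2%) had a member, and of 11 genes of drug and xenobiotic metabolism 3 (27.3%). Of 33 immediate early and stress regulators, 4 (12.1%) did. These shares are counts without a test, and the part of transcript length, exon number and expression in them was not tested.

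The m6A machinery was represented by 5 genes. Zc3h13, which holds the writer complex in the nucleus, was the only one of 7 writer genes with a peak that had members, and it had 5. Its exon 12 (chr14:75327544-75328144) had 53.8, 57.0, 94.3 and 74.5 in ND and 58.2, 64.0, 84.3 and 56.8 in HFrD mice, and exon 14 (chr14:75330069-75331259) had a median of 56.2. The diets overlapped in both. Of 12 erasers and readers with a peak, 4 had members, with 5 in Eif3a, 4 in the nuclear reader Ythdc1 and 1 each in the cytoplasmic reader Ythdf3 and in Fmr1. Exon 20 of Eif3a, a translation initiation subunit (chr19:60764032-60764233), had a median of 42.7 and values from 32.2 to 48.3 over the 8 mice.

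Of 29 genes taken from the study, 21 had a peak and 6 (28.6% of these) had a member, beside 27.2% of all genes with a peak. They held 6 members, and the diets overlapped in all of them. The study compared the diets with diffReps and listed Apoa4, Saa2 and Ppargc1a as hypermethylated and Arhgap26 as hypomethylated in HFrD mice. That measure differs from fold enrichment over background. The study's Apoa4 site lay inside the member given here, and its Ppargc1a site lay outside. For Apoa4, Saa2 and Ppargc1a the study also reported higher mRNA in HFrD mice. Apoa4, an apolipoprotein, had the highest median, 22.7, in its last exon (chr9:46242279-46243459), with 20.8, 24.0, 29.3 and 23.6 in ND and 20.5, 21.9, 23.6 and 17.3 in HFrD mice. Scd1, the main hepatic stearoyl-CoA desaturase, had 12.4, 9.31, 16.0 and 10.5 in ND and 9.94, 10.5, 13.6 and 7.23 in HFrD mice in exon 1 (chr19:44407386-44407709). Pparg, a nuclear receptor that drives lipid storage, had a median of 10.2 in its last exon (chr6:115489948-115490401). Ppargc1a, a coactivator of mitochondrial genes, had 7.83 in the 3'UTR (chr5:51457060-51458283), Saa2, an acute phase protein whose close paralogues can share its reads, had 7.45, and Arhgap26 had 8.50.

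Fold enrichment of the members correlated between livers. Pearson r between mice, on the log2 scale across the 3001 members, lay between 0.79 and 0.84 in the 28 pairs, with means of 0.83 within ND, 0.82 within HFrD and 0.81 between the diets. These are correlations across regions, which are not independent replicates. The SD of a member over the 8 mice, after each list was centred on its median, had a median of 0.34 on the log2 scale (quartiles 0.27 and 0.43). Exon 1 of Aff1 was the steadiest, with values from 20.8 to 26.8 (SD 0.048), followed by C1ra, Colec11, Esf1 and Bud13.

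The members that varied most did so within the diets. Serpina3j, of a cluster of protease inhibitor genes with near-identical copies (chr12:104314553-104315206), had 37.99, 57.9, 4.64 and 9.86 in ND and 44.3, 20.4, 66.6 and 4.09 in HFrD mice (SD 1.58). The last exon of Lars2, the mitochondrial leucyl-tRNA synthetase (chr9:123461499-123462664), had 187, 158, 706 and 142 in ND and 61.8, 267, 115 and 33.8 in HFrD mice (SD 1.28). Cactin had an SD of 1.05 with high values in ND mice 6 and 7 and HFrD mice 5 and 7. Ube2l3 and Hamp2, a hepcidin gene with a close paralogue, had high values in ND mouse 7 alone. The diets overlapped in all 5.

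The diets were then compared for the strength of the members, since presence was the same in all mice by the rule. No member passed the threshold of 0.05. limma was fitted to all 4360 regions found in all lists, on log2 fold enrichment centred on each list, and the smallest adjusted p among the members was 0.105 (0% of the fitted regions called). Without adjustment, 317 members (10.6%) had p under 0.05, 145 higher and 172 lower in HFrD, beside 9.61% of all fitted regions. Values of the diets did not overlap in 153 members (5.10%), beside 5.23% of all fitted regions. The median difference was -0.0059 over the members and 0.0037 over all fitted regions.

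The 95% interval of a member's difference had a median half-width of 0.49 on the log2 scale, and differences beyond 1 in size were seen in 14 members. In simulated data with the spread of these lists, the fit recovered 132 of 200 regions changed by 1 on the log2 scale and 197 of 200 changed by 2. Without centring, 62 members were higher and 248 lower at p under 0.05, with 0 past the adjusted threshold and a median difference of -0.095. The direction of single members below is therefore relative to the median of the fitted regions.

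The 5 members of smallest p that were higher in HFrD lay in Gbp3, Pard3b, Map4k4, B630005N14Rik and Spi1. Gbp3, an interferon-inducible GTPase, had 11.4, 8.08, 8.96 and 15.3 in ND and 27.7, 21.4, 25.1 and 16.2 in HFrD mice in exon 10 (chr3:142570893-142571086), and all HFrD values lay above the ND values. The difference was 1.15 ± 0.22 (SE, n = 4 each; limma, adjusted p = 0.105). On the log2 of the deposited score in place of fold enrichment, Gbp3 passed the threshold (limma, adjusted p = 0.0292), and over all settings its adjusted p ran from 0.0292 to 0.706. Pard3b, a protein of cell polarity, had 11.7, 7.30, 9.71 and 11.3 in ND and 17.9, 17.2, 35.0 and 20.5 in HFrD mice in exon 18 (difference 1.23 ± 0.24, limma, adjusted p = 0.105).

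Map4k4, a kinase upstream of JNK signalling, had 8.32, 9.64, 12.2 and 7.48 in ND and 14.9, 17.2, 22.9 and 19.6 in HFrD mice in exon 12 (chr1:39990089-39990299; difference 1.08 ± 0.23, limma, adjusted p = 0.152). The next exon of Map4k4 (chr1:39997021-39997182) was also a member, with 14.1, 11.0, 18.9 and 10.8 in ND and 19.2, 20.8, 28.9 and 19.6 in HFrD mice (difference 0.80 ± 0.23, limma, adjusted p = 0.329). A region in the last exon of Spi1, the myeloid and B cell transcription factor PU.1 (chr2:91115075-91115756), had 6.65, 8.60, 10.2 and 9.49 in ND and 17.02, 12.6, 15.9 and 14.1 in HFrD mice (difference 0.87 ± 0.21, limma, adjusted p = 0.223). In bulk liver, a change in the number of cells of a type and a change in the RNA per cell cannot be told apart. Of 9 Kupffer cell and macrophage marker genes with a peak, 2 had a member, C1qa and Cd163, and both had an unadjusted limma p above 0.05. Fold enrichment over background does not measure the number of cells, so these values say nothing on it. B630005N14Rik made up the set (difference 0.88 ± 0.21).

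The 5 members of smallest p that were lower in HFrD lay in Hsd17b4, Tmem64, Dctn2, Eif4ebp1 and Smarca2. Hsd17b4, the bifunctional enzyme of peroxisomal beta-oxidation, had 27.3, 19.9, 23.9 and 25.8 in ND and 10.9, 14.5, 9.29 and 8.58 in HFrD mice in exon 1 (chr18:50128201-50128409; difference -1.09 ± 0.21, limma, adjusted p = 0.105). Exon 1 of Eif4ebp1, a repressor of cap-dependent translation under the control of mTOR (chr8:27260327-27260550), had 20.0, 22.0, 22.9 and 24.4 in ND and 9.59, 12.2, 14.95 and 10.4 in HFrD mice (difference -0.85 ± 0.19, limma, adjusted p = 0.223). Exon 1 of Dctn2, a subunit of dynactin, had 29.4, 39.6, 31.6 and 24.2 in ND and 12.8, 16.4, 14.3 and 13.8 in HFrD mice (difference -1.02 ± 0.22, limma, adjusted p = 0.152). The ND values lay above all HFrD values in each of these genes and in Tmem64 (difference -1.18 ± 0.23, limma, adjusted p = 0.105).

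Smarca2 exon 4 (chr19:26630670-26631131) completed the set, with 15.4, 22.4, 16.0 and 15.4 in ND and 6.46, 9.48, 9.55 and 7.82 in HFrD mice (difference -0.96 ± 0.23, limma, adjusted p = 0.223). Its neighbour exon 5 differed by -0.85, without overlap of the diets, whereas the other 9 members of Smarca2 had differences between -0.40 and 0.48 and overlapped. Members of Acbd3, a Golgi protein singled out after its values were seen, differed by 0.86, 0.82 and 0.88 in exons 3, 4 and 5, by 0.22 in exon 2 and by -0.28 in exon 7 (adjusted p between 0.252 and 0.855). Differences between exons of a gene were not tested.

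**Figure D5:**
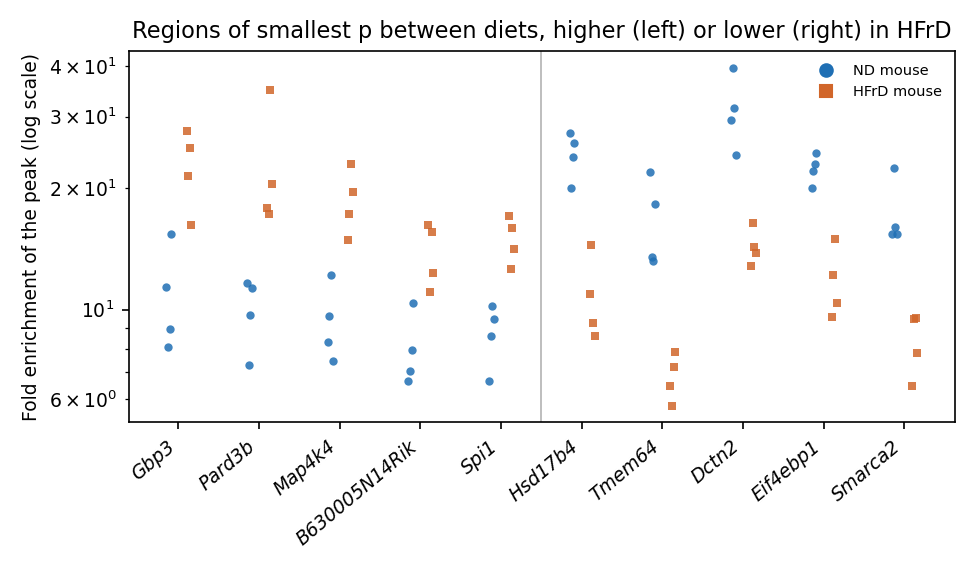
Fold enrichment (y axis, log scale) of the 5 members of smallest p that were higher (left of the line) and the 5 that were lower (right) in HFrD, with a point for each ND mouse (blue circles) and HFrD mouse (orange squares). The diets do not overlap in any of the 10, which were chosen for their small p, and none passed the adjusted threshold (adjusted p from 0.105 to 0.223).

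Gene lists were compared by their counts at p under 0.05, beside 9.61% of all fitted regions. The 83 members of chromatin modifiers had a median difference of -0.039, with 1 higher and 4 lower at p under 0.05. Of the 10 members of 7 Wnt signalling genes, 4 were lower at p under 0.05, in Lrp5, Lgr4, Tcf7l2 and Bcl9l, and 0 were higher, with a median of -0.28. Of the 28 members of nuclear receptors and coregulators, 5 were lower and 0 higher, with a median of -0.13. Of the 11 members of m6A erasers and readers, 2 were higher, in Ythdc1 exon 4 and Fmr1 exon 1, and 0 lower, with a median of 0.036. In some lists more members were higher than lower, on small counts. Of the 3 members of cytochromes P450, 2 were higher and 0 lower, with a median of 0.47. These were weak members, with a median within-list percentile of 31.5. Of the 13 members of MAP kinase cascade kinases 3 were higher and 1 lower, and the higher ones included both neighbouring exons of Map4k4 given above. In Zfp genes 3 of 26 members were higher and 1 lower, with a median of 0.055. Not every list is printed. No member of these lists passed after adjustment over the 4360 regions, and the lists are described by counts only.

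No value per mouse over the members passed the threshold between the diets. Members took up 29.8% ± 3.12 of the peaks in ND lists and 33.2% ± 3.49 in HFrD lists (n = 4 each, SD; by exact permutation of the mice, two-sided p = 0.171 and adjusted p = 0.6 over 6 values). Every list holds all members, so this share follows from the length of the list. The median within-list percentile of the members was 74.6 ± 3.07 in ND and 70.9 ± 3.8 in HFrD mice (exact permutation p = 0.2, adjusted p = 0.6). Median peak width was 313.5 ± 3.11 bp and 314.25 ± 2.22 bp (exact permutation p = 0.8), and members with more than 1 peak numbered 2.75 ± 1.26 and 3.25 ± 0.957 (exact permutation p = 0.743). With 4 mice in each diet this test cannot give a p below 0.0286.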

How the data were processed

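Liver RNA of each mouse was immunoprecipitated with an anti-m6A antibody and sequenced with its input. Per the submitters' notes, cutadapt 1.9.3 removed adapters and HISAT2 2.0.4 placed the reads on mm10. The authors called peaks per mouse with MACS (version and settings not given in the sources used here) and kept those on mRNA exons. The deposited score is minus 10 times the log10 of the peak p-value. The deposited fold enrichment is a linear ratio. The deposited false discovery rate, in percent, had medians between 65.1% and 95.9% over member peaks, and no filter was set on it by the rule. Starts count from 0 in the files, so 1 was added.

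Peaks of the 8 lists were merged as described. The members, gene lists and tests were chosen with earlier results of these data known. limma 3.58.1 (R 4.3.3, trend) was fitted to all 4360 regions found in all lists, with Benjamini-Hochberg adjustment over all of them. Fold enrichments of separate lists share no absolute scale, so each list was centred on its median. Values per mouse were compared by exact permutation of the 8 mice, and members with other peaks by exact sign flips over mice. Nothing in the labels says that the mice shared a litter or day. Exons came from RefSeq and GENCODE M21 models of GRCm38, the assembly of mm10, found for 92.4% of peaks. The fit was tested on simulated data with 200 planted regions among 4360, and with none planted it called 0.

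Named members were the 10 with the highest lowest percentile, per direction the 5 of smallest p, members of the 10 genes with most members, up to 4 per gene list, those in genes the study names, the 3 nearest each length limit on either side, and the 5 steadiest and 5 most variable. Not every one is printed. Python 3.11.15, numpy 2.4.6, pandas 2.3.3, scipy 1.17.1 and matplotlib 3.10.9 were used. Alternatives were other scalings, filters, overlaps and windows, each mouse left out and a block of mice 1 and 7. Those for whole exons and purine content were added after seeing the data.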

Additional observations from a re-analysis of the deposited data

Results flagged for a closer look

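In 84 groups of 4 mice, 4 held a mouse set far apart from the other 3. The groups came from 36 named members and the values per mouse. The 4 flagged were in members chosen for large spread or small p in these same mice, so no chance rate applies to this count. Hamp2 had a fold enrichment of 95.71 in ND mouse 7, where the other ND mice had 15.4 to 24.8. Lars2 had 706.29 in ND mouse 6, where the others had 142 to 187. Ube2l3 had 45.63 in ND mouse 7, where the others had 7.04 to 10.8. Smarca2 exon 4 had 22.39 in ND mouse 3, where the others had 15.4 to 16.0, and without that mouse its diet difference was -0.81 in place of -0.96.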

How the results depend on the processing

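The number of members was 2985 when peaks under a fold enrichment of 3 were dropped, 2072 when those scoring under 100 were, 2597 with equal list lengths and 3071 to 3261 without single mice. Members past the threshold for a diet difference numbered 3 on the log2 score (Rdh1, Gbp3 and Cldn3), with 2.25 for Gbp3, and 0 to 1 without single mice, where Elf1 passed without HFrD mouse 7. They numbered 0 under the other scalings, filters and overlaps. The 10 members named for their diet difference kept their direction in every fit that held them. Mice 1 and 7 of each diet share only a number, and their deviations from the diet means correlated by 0.042 and -0.069. With the number as a replicate block, 0 members passed (98 higher and 125 lower at an unadjusted p under 0.05).

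Some diet differences of the values per mouse changed sign, whereas that of the median percentile kept its sign in the 12 alternatives run. For peaks in members, and equally for members with more than 1 peak, the difference of 0.5 became -0.25 at a score of at least 100, -0.75 with equal list lengths, -1 within the block of mice 1 and 7, and -0.417 to 1.58 without single mice. For peaks per member it became -0.000121, -0.000289 and -0.000333, and -0.000133 to 0.000486 without single mice. For median width it became -0.25 at the higher score and -1.5 within the block, and for the share of the list in members -0.0093 with equal list lengths. Against other peaks, single mice left out gave -0.675 to -0.126 for GGACT, -2.09 to -1.05 for the wider consensus, 1.25 to 2.40 for the CDS, -0.269 to 0.0209 for the 5'UTR and -1.02 to 0.305 for the stop codon segment. At a score of at least 100 the 5'UTR (-0.325) and the stop codon segment (-1.57) passed, and against regions found in 4 to 7 lists the stop codon segment passed (-0.978) and the 5'UTR turned to 0.180. The causes were not tested. Whole exons stayed at 84.0% to 86.6% of the members and the purine gap of internal exons at 5.497 to 6.35 percentage points in all settings run. Read depth, which limits weak peaks, is unknown.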

Other observations

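Another 1037 regions of 121 to 1499 bp had a peak in 7 of the 8 lists, with a median fold enrichment of 7.76, beside 10.9 in the members and 5.62 in the 3200 regions of that length found in 1 list. The list that lacked the peak was most often that of HFrD mouse 7 (251 regions) or HFrD mouse 1 (217 regions), which are the 2 shortest lists, and least often that of ND mouse 7 (55 regions), the longest. Members were found on 20 chromosomes, from 54 on chromosome X to 234 on chromosome 2.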
